A study of Ovis aries with 13 samples.

Results

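Heat shock proteins, their J-domain partners and the protein disulfide isomerases were followed in the left ventricle of sheep around birth. The members were all probes whose gene name began with HSP, DNAJ or PDIA, taken from the array files or from the gene identifiers given there. The rule found 7 of 15008 probes, which stood for 5 genes: HSP70.1 and HSPA5 with 2 probes each, and HSP90AA1, PDIA4 and PDIA5 with 1 each. The name in the files chose 6 of them, the RefSeq identifiers added 0, and 1, PDIA4, is listed under an NCBI gene number that the RefSeq table names PDIA4. HSP70.1 is an older name for one of the near-identical inducible Hsp70 genes, HSPA1A and HSPA1B, and the name in the files is kept here. No named probe for a DNAJ gene and no named probe for a constitutive cytosolic member such as HSPA8 or HSP90AB1 was found by the rule, so inducible members could not be set against constitutive ones of the same compartment.

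The fetal group held 6 animals at gestational day 142, of which 2 were female and 4 male. The newborn group held 7 lambs at postnatal day 1, called the day of birth in the protocol, of which 4 were female and 3 male. A piece of frozen left ventricle from each animal gave total RNA for 1 Agilent array with a single green channel. The labels name no breed and no treatment other than age, and the series' design text speaks of 7 fetuses, of which 6 were analysed here. Some animals of a group share a number under different letters (9 animals, 4 numbers), with no stated meaning. In bulk tissue, fewer cells of a type and less RNA per cell cannot be told apart.

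Molecular chaperones bind unfolded stretches of other proteins and keep them from aggregating until they fold. Inducible Hsp70 and HSP90AA1 do so in the cytosol and are classical targets of the heat shock factor HSF1. HSPA5, also called BiP, is the Hsp70 of the endoplasmic reticulum, where the disulfide isomerases PDIA4 and PDIA5 form and rearrange the disulfide bonds of secretory and membrane proteins. HSPA5 and PDIA4 are known targets of the unfolded protein response, the programme that matches the folding capacity of that compartment to its load.

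The probes are 60-base sequences printed here as the array files give them, since they show what the HSP70.1 signal can and cannot tell apart. Both HSP70.1 probes lie on nearly the same stretch. They share 58 bases with 0 mismatches, so they are not independent readings of the transcript. A further probe, A_70_P060956, has no gene name in the files but lists the same GenBank records as HSP70.1. It overlaps the HSP70.1 probes by 55 and 57 bases with 1 mismatch, written T45A against A_70_P031191 and T47A against A_70_P031192, with positions counted from 1 at the 5′ end of the HSP70.1 probe. The base that differs is in capitals.
HSP70.1 probe A_70_P031191: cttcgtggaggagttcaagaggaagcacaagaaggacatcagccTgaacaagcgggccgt
HSP70.1 probe A_70_P031192: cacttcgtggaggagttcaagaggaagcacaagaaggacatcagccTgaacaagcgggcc
unnamed probe A_70_P060956: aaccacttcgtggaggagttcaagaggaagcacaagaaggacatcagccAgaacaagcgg
The files list these probes as unmapped, with no genome build, so no position is given. Whether they also bind transcripts of the other near-identical Hsp70 genes was not tested.

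The other members have probes with no stretch of 20 bases in common with any other probe on the array. The 2 HSPA5 probes lie side by side without overlap and read separate parts of that transcript, which is why both are shown.
HSPA5 probe A_70_P016527: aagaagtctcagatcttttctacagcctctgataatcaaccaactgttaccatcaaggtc
HSPA5 probe A_70_P016526: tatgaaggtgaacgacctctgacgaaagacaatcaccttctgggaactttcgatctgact
PDIA4 and HSP90AA1 each rest on 1 sequence.
PDIA4 probe A_70_P059651: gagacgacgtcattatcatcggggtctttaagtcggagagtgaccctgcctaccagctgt
HSP90AA1 probe A_70_P014626: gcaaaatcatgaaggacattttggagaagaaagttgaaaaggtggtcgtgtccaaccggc

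All levels below are log2 of the processed spot signal minus the 75th percentile of the array, so a level of 0 equals that percentile. Levels of different probes were not compared. All 7 probes were well above background on all 13 arrays and none was saturated. The 75th percentile of the signal lay between 219 and 367, which was 8.77 to 13.6 times the median background, and the arrays lay on 2 slides that each held both groups. Differences are newborn minus fetal, from limma with Benjamini-Hochberg adjustment over the 10255 probes tested and a threshold of 0.05.

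Inducible Hsp70 fell and PDIA4 rose between the fetal and the newborn ventricle, while HSP90AA1, HSPA5 and PDIA5 did not pass the test. Thus 3 of the 7 probes passed, 2 lower in newborns and 1 higher. The higher one, PDIA4, passed narrowly (adjusted p 0.0448 in limma) and lost its call in 19 of 28 alternative settings. HSP90AA1 was higher too and missed the threshold at an adjusted p of 0.0764. Over all probes tested 23.1% passed (2366 of 10255), with 12% higher and 11.1% lower. The median difference was 0.34 over the 7 member probes and 0.03 over all probes tested. With this background, the number of member probes that passed is not in itself a feature of the group.

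**Figure D1:**
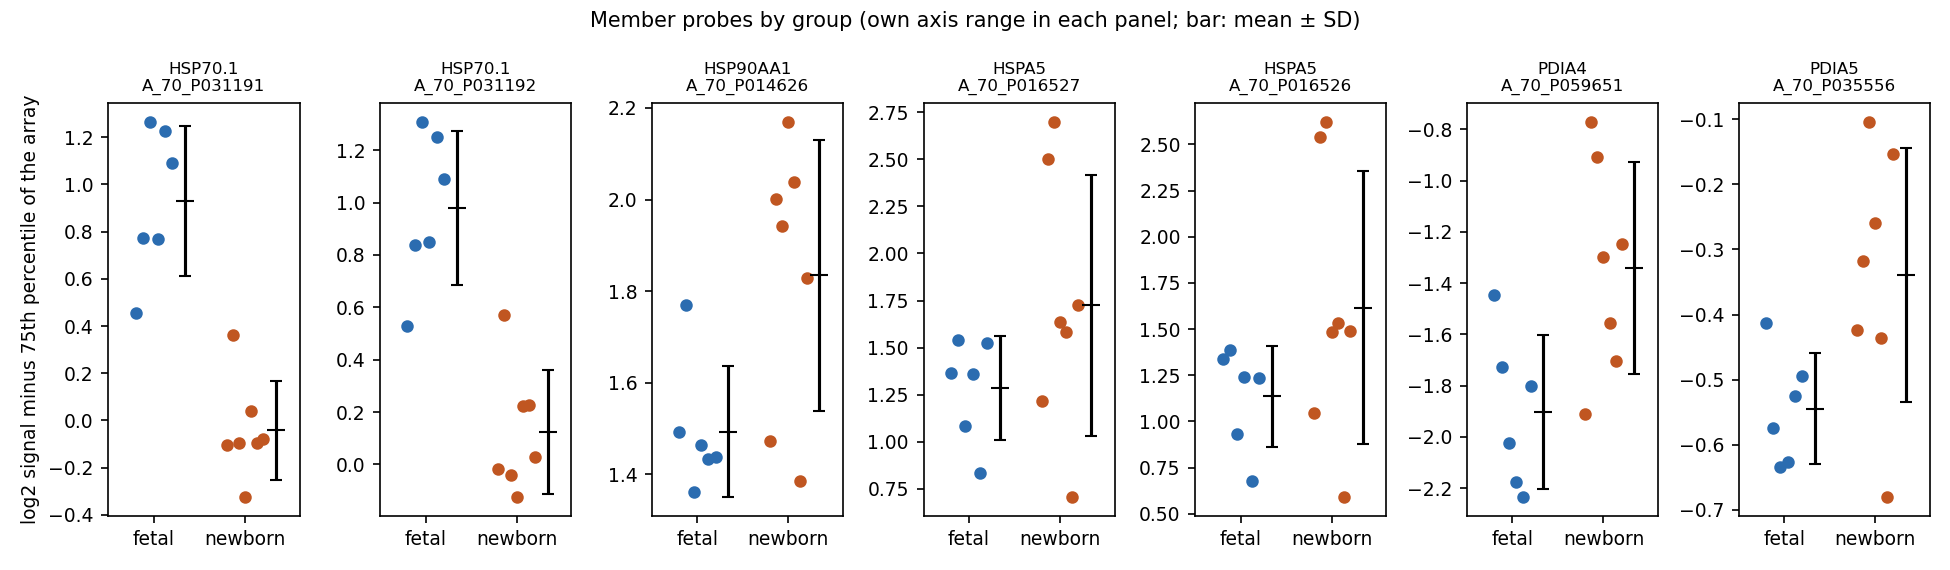
Level of each member probe (log2 signal minus the 75th percentile of the array) on the 6 fetal and 7 newborn arrays, 1 point an array, with the mean and SD of each group. The newborn points of HSP70.1 probe A_70_P031191 all lie below the fetal ones, while the newborn points of HSPA5 spread above and below them.

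Among the cytosolic members, HSP70.1 was 1.96-fold lower in newborns by probe A_70_P031191. Its levels on fetal 1 to 6 were 0.45, 0.77, 1.26, 0.77, 1.23 and 1.09, with a median of 0.93 and a mean of 0.93 ± 0.317 (SD, n = 6). Its levels on newborn 1 to 7 were -0.10, 0.36, -0.09, -0.32, 0.04, -0.10 and -0.08, with a median of -0.09 and a mean of -0.04 ± 0.209 (SD, n = 7). All 7 newborn arrays thus lay below all 6 fetal arrays. The difference was -0.97 (SE 0.144, 95% confidence interval -1.28 to -0.66), with an adjusted p of 0.000774 in limma, which ranked 93 among the 10255 probes. Over all probes tested the groups did not overlap for 6.89%, of which newborn levels lay below fetal levels for 3.51% and above for 3.38%.

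The overlapping probe A_70_P031192 gave nearly the same picture. Its levels on fetal 1 to 6 were 0.53, 0.84, 1.31, 0.85, 1.25 and 1.09, with a median of 0.97. Its levels on newborn 1 to 7 were -0.02, 0.57, -0.04, -0.12, 0.22, 0.23 and 0.03, with a median of 0.03. The single overlap came from newborn 2, at 0.57, which was just above the lowest fetal array, and the other 6 newborn arrays lay below all fetal ones. The difference was -0.85 (SE 0.144), or 1.81-fold lower, with an adjusted p of 0.0017 in limma. The unnamed probe with the mismatch, A_70_P060956, fell by 0.97 on the log2 scale (SE 0.170, 1.96-fold, adjusted p 0.00197 in limma), and 6 of its 7 newborn arrays lay below all fetal ones.

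The HSP70.1 fall had the same direction on both slides. On slide 1 the difference was -0.76 by A_70_P031191 and -0.71 by A_70_P031192 (adjusted p 0.0841 and 0.110 in limma), and on slide 2 it was -1.27 and -1.08 (adjusted p 0.0440 and 0.0751). With normexp background correction of each spot, the differences were -0.73 and -0.65 and the adjusted p in limma 0.059 and 0.0878. Leaving out any single array kept both calls.

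HSP90AA1, the heat-inducible cytosolic Hsp90, ran the other way without passing. Its fetal levels ran from 1.36 to 1.77 with a median of 1.45, and its newborn levels from 1.39 to 2.17 with a median of 1.94. On 5 newborn arrays it stood above all fetal arrays, and on newborn 1 (1.47) and newborn 6 (1.39) it stood within the fetal range. The difference was 0.34 (SE 0.133, 95% confidence interval 0.06 to 0.63, 1.27-fold), with an adjusted p of 0.0764 in limma. Without newborn 1 it was 0.40 (adjusted p 0.0387 in limma) and without newborn 6 it was 0.42 (adjusted p 0.0181). Over all probes 2438 and 3116 passed in these fits, against 2366 with every array.

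**Figure D2:**
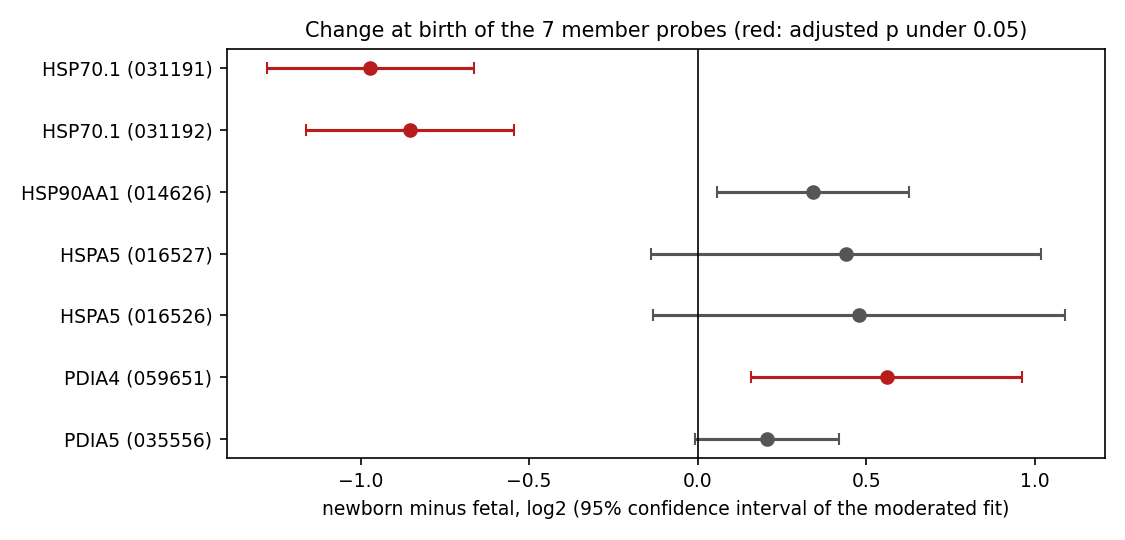
Newborn minus fetal difference of each member probe (log2) with its 95% confidence interval from limma. The intervals of both HSP70.1 probes lie below 0, those of PDIA4 and HSP90AA1 lie above 0, and those of HSPA5 and PDIA5 cross 0. PDIA4 passed at an adjusted p of 0.0448 and HSP90AA1 did not at 0.0764.

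In the endoplasmic reticulum, PDIA4 was 1.47-fold higher in newborns. The levels on fetal 1 to 6 were -1.45, -1.73, -2.02, -2.18, -2.23 and -1.80, with a median of -1.91 and a mean of -1.90 ± 0.300 (SD, n = 6). The levels on newborn 1 to 7 were -1.91, -0.77, -0.91, -1.30, -1.55, -1.70 and -1.25, with a median of -1.30 and a mean of -1.34 ± 0.414 (SD, n = 7). The 2 highest arrays were newborn 2 at -0.77 and newborn 3 at -0.91, newborn 1 at -1.91 lay at the fetal median, and 4 of 7 newborn arrays lay above all fetal ones. The difference was 0.56 (SE 0.189, 95% confidence interval 0.16 to 0.96), with an adjusted p of 0.0448 in limma, close to the threshold. The call was lost in 19 of 28 alternatives, among them without any one of 10 of the 13 arrays (adjusted p 0.0549 to 0.0997), with normexp correction of each spot (0.33, adjusted p 0.590) and within slide 1 (0.65, adjusted p 0.229) or slide 2 (0.57, adjusted p 0.204). A random block for shared animal numbers also lost it (0.56, adjusted p 0.0773 in limma). The direction was kept in all 28.

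HSPA5 separated the newborn animals from each other more than it separated the groups. By probe A_70_P016527 fetal levels ran from 0.84 to 1.54 with a median of 1.36, and newborn levels from 0.71 to 2.70 with a median of 1.63. Newborn 3 at 2.70 and newborn 2 at 2.50 were the highest of all 13 arrays, and newborn 6 at 0.71 was the lowest. The adjacent probe A_70_P016526 ordered them alike, with newborn 3 at 2.62, newborn 2 at 2.54 and newborn 6 at 0.59. The differences were 0.44 (SE 0.271, 95% confidence interval -0.14 to 1.02) and 0.48 (SE 0.286, interval -0.13 to 1.09), with adjusted p of 0.253 and 0.237 in limma. Without newborn 3 they were 0.28 and 0.31, and without newborn 6 they were 0.61 and 0.65 (adjusted p 0.0632 and 0.0671 in limma). On slide 1 they were 0.80 and 0.84, and on slide 2 they were 0.23 and 0.32. The intervals over all arrays hold 0 and reach beyond a log2 difference of 1, so they do not show that HSPA5 stayed the same.

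PDIA5, another disulfide isomerase of the same compartment, differed by 0.21 (SE 0.10, 95% confidence interval -0.0092 to 0.42, adjusted p 0.149 in limma). Its fetal levels ran from -0.63 to -0.41 with a median of -0.55, and its newborn levels from -0.68 to -0.10 with a median of -0.32. Newborn 3 was highest and newborn 6 lowest, and 4 of 7 newborn arrays lay above all fetal ones. Without newborn 6 the difference was 0.26 and the adjusted p in limma 0.0376, in a fit where 3116 of all probes passed against 2366 with every array. The difference was 0.28 on slide 1 and 0.13 on slide 2.

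The newborn spread was wider than the fetal one for all members but HSP70.1. The newborn SD was 2.52 and 2.69 times the fetal SD for the HSPA5 probes, 2.31 times for PDIA5, 2.08 times for HSP90AA1 and 1.38 times for PDIA4. For HSP70.1 it was 0.657 and 0.808 times. The median of this ratio over all probes tested was 1.25, and 10.8% and 8.76% of probes had a ratio at or above those of HSPA5, so a ratio of that size was not rare. No test of spread was run.

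Among the newborn arrays, the order of the members was shared in part. Newborn 2 and 3 were the highest for both HSPA5 probes and for PDIA4, and newborn 6 was the lowest for HSPA5, HSP90AA1 and PDIA5. Other orders differed, since HSP90AA1 was highest on newborn 4 (2.17) and newborn 5 (2.04), PDIA4 was lowest on newborn 1 (-1.91), and PDIA5 was highest on newborn 3 (-0.10) and newborn 7 (-0.15). For HSP70.1, newborn 2 was highest by both probes (0.36 and 0.57), and also by the unnamed probe A_70_P060956 (0.74). Newborn 6 (-0.10) and newborn 3 (-0.09) were nearly equal by A_70_P031191. By A_70_P031192 newborn 6 (0.23) stood above newborn 3 (-0.04), while by A_70_P060956 newborn 6 was lowest (-0.30). These comparisons share the same libraries, so they describe the 13 arrays and carry no test.

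**Figure D3:**
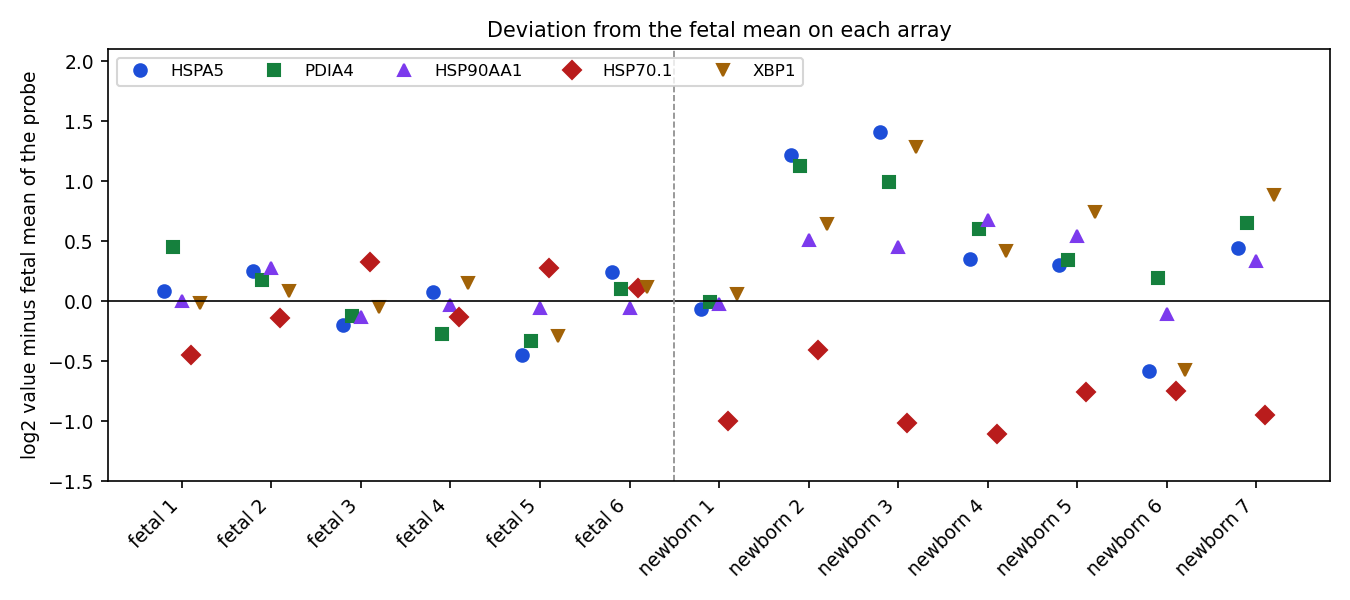
Deviation from the fetal mean of the probe (log2) on each of the 13 arrays. Shown are HSPA5 (A_70_P016527), PDIA4, HSP90AA1 and HSP70.1 (A_70_P031192), with XBP1 (A_70_P001447), which is not a member. Newborn 2 and 3 stand highest for HSPA5 and PDIA4, newborn 6 lies lowest for HSPA5, and HSP70.1 is below the fetal mean on all 7 newborn arrays.

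The difference between 2 member probes within an array does not depend on how the array is scaled, and was tested for the 10 pairs of genes with an exact permutation test over arrays, two-sided, with adjustment over the 10 pairs. The pairs were chosen after the data were seen, in place of the comparison of inducible with constitutive members, and HSP70.1 was represented by its brighter probe, A_70_P031192. The 4 pairs with HSP70.1 passed and the other 6 did not. These 4 share the same HSP70.1 values, whose fall is reported above, so they are not independent results. Only the change of such a difference with age is read here, not its level.

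HSP70.1 minus HSP90AA1 had a mean of -0.52 in fetal arrays (-0.96 to -0.05) and -1.71 in newborn arrays (-2.29 to -1.16). All 7 newborn arrays lay below all fetal ones, and the change was -1.20 (exact permutation p 0.00117, adjusted 0.00389). Both are heat-inducible cytosolic chaperones, and they changed unequally with age. The change had the same direction within each slide.

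HSP70.1 also fell relative to the members of the endoplasmic reticulum. Against PDIA4 the change was -1.41 (fetal 1.98 to 3.49, newborn 0.87 to 1.93, exact permutation p 0.000583, adjusted 0.00291), and against PDIA5 it was -1.06 (fetal 0.94 to 1.94, newborn 0.07 to 0.91, the same p). That p is the smallest these arrays allow, and in both pairs all newborn arrays lay below all fetal ones. The permutation treats the arrays as independent, although 9 animals share 4 numbers with no stated meaning. HSPA5 minus HSP70.1 changed by 1.29 (exact permutation p 0.00408, adjusted 0.0102), with 6 of 7 newborn arrays above all fetal ones. The 4 changes kept their direction on each slide.

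**Figure D4:**
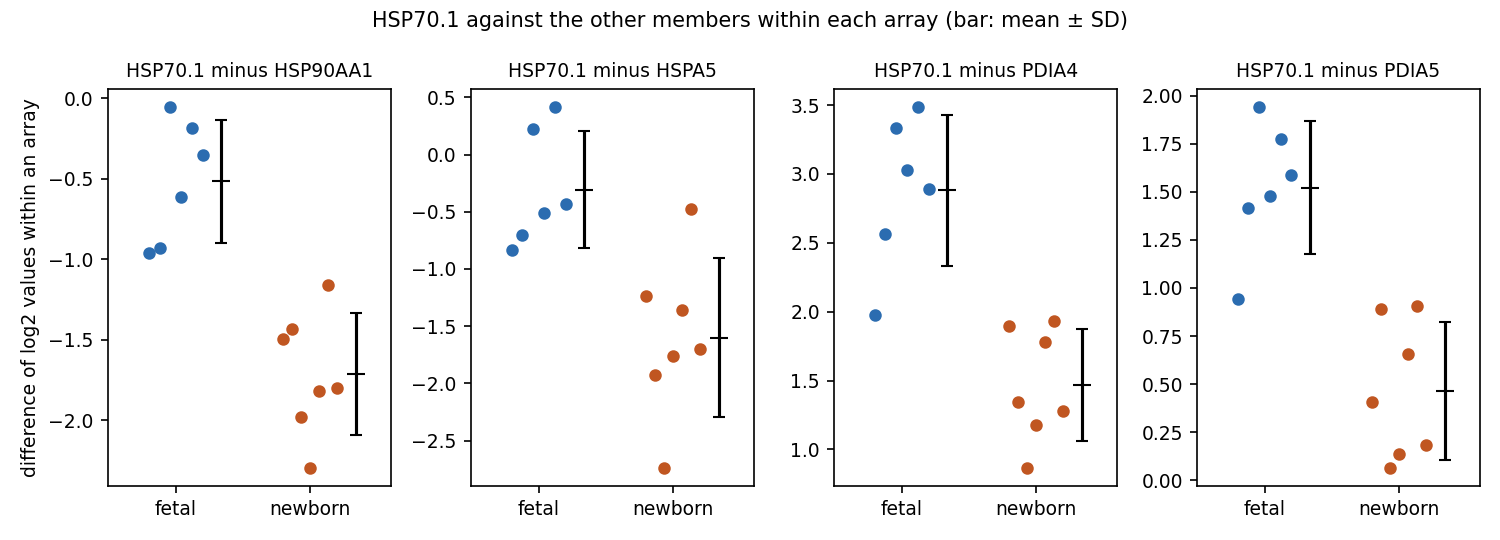
Level of HSP70.1 (probe A_70_P031192) minus that of HSP90AA1, HSPA5, PDIA4 or PDIA5 on the same array (log2), 1 point an array, with the mean and SD of each group. Newborn points lie below all fetal points in 3 panels, and for HSPA5 1 newborn array overlaps the fetal range.

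Between the members other than HSP70.1, no pair passed. HSPA5 minus HSP90AA1 changed by 0.10 (adjusted exact permutation p 0.680), with 0.52 on slide 1 and -0.19 on slide 2. HSPA5 minus PDIA4 changed by -0.12 (adjusted exact permutation p 0.579), with 0.15 on slide 1 and -0.34 on slide 2. The 2 disulfide isomerases differed by -0.35 for PDIA5 minus PDIA4 (adjusted exact permutation p 0.0956), which became -0.44 with an adjusted p of 0.0216 without newborn 1. A p that misses the threshold does not show that these members changed alike.

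Sex gave no call among the members. With sex added to age, 0 of 7 probes passed in limma and 0 had an unadjusted p under 0.05, against 1 probe called over all tested (0.00975%) and 331 at an unadjusted p under 0.05. For the product of age and sex, 0 of 7 member probes and 0 of all probes (0%) passed in limma, and 0 members and 507 of all probes had an unadjusted p under 0.05. With 2 fetal females this comparison was imprecise: for HSPA5 probe A_70_P016527 the mean was 1.53 in fetal females, 1.16 in fetal males, 1.54 in newborn females and 1.97 in newborn males, and the product term was 0.80 with an SE of 0.561.

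Other genes of the folding pathways came from lists of co-chaperones, chaperonins, enzymes of the endoplasmic reticulum and the unfolded protein response, each gene represented by its brightest probe. Of 28 genes listed as cytosolic partners 5 were tested and 0 passed in limma. They were BAG6, CRYAA, CRYAB and the transcription factors HIF1A and NR3C1. The median difference was 0.16 and became 0.02 without fetal 2, and both are the values of HIF1A. Of 16 chaperonin and mitochondrial genes 2 were tested, TCP1 at 0.23 and GRPEL1 at -0.03, and 0 passed. Of 24 partners in the endoplasmic reticulum 2 were tested and 0 passed, with the chaperone-like ERP29 at 0.00 (adjusted p 0.992) and the prolyl isomerase PPIB at 0.23 (adjusted p 0.138).

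The unfolded protein response had 5 of 18 listed genes tested and 0 passed, with a median difference of 0.33. The median was 0.44 without fetal 5 and 0.21 without newborn 3. XBP1, a transcription factor of that response, differed by 0.50 by its brightest probe (SE 0.231, adjusted p 0.131 in limma). The difference was 0.67 without newborn 6, where it passed (adjusted p 0.00945), as did 3116 of all probes against 2366 with every array. Without any other single array it did not pass (adjusted p 0.0947 to 0.234). By this probe XBP1 was highest on newborn 3 at 2.57 and lowest on newborn 6 at 0.72, the arrays that were also highest and lowest for HSPA5. The other XBP1 probe differed by 0.52 (SE 0.212, adjusted p 0.0882 in limma). It was also highest on newborn 3, at 2.48, but lowest on fetal 5 at 0.82, with newborn 6 at 0.90. DDIT3, the stress factor CHOP, differed by 0.33 by its brightest probe (adjusted p 0.444), while its other probe differed by 0.62 (SE 0.131, adjusted p 0.00488 in limma). Both probes were well above background on 4 of 6 fetal and 7 of 7 newborn arrays. The brightest probe stood at -2.14 on fetal 5 and between -4.29 and -3.88 on the other fetal arrays. Without fetal 5 the probes differed by 0.64 and 0.63, and both passed (adjusted p 0.0235 and 0.0113 in limma). Fetal 5 stood out on the brightest probe itself, so the pass of that probe without it is no separate support. Without any other single array the brightest probe did not pass (adjusted p 0.350 to 0.655 in limma).

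The genes whose levels followed the members most closely over the 13 arrays were ranked by Pearson correlation among 624 named genes, as a description with no test. For HSP70.1 they were IGF-IIR, the receptor that clears IGF2, at r = 0.955, the growth factor IGF2 at 0.906 and the T-cell receptor chain CD3E at 0.885. Part of this is the shared age difference, and after removal of the group means the values were 0.810, 0.544 and 0.598. For PDIA4 they were the scaffold protein HOMER at 0.875, the mitochondrial folate enzyme MTHFD2 at 0.864 and HSPA5 at 0.839, with 0.799, 0.781 and 0.826 after removal of the group means. All points share their library and its scaling.

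Markers of other cell types moved with age, and their part in the HSP70.1 and PDIA4 differences was not tested. Of the 18 cardiomyocyte markers listed, 1 was found among the named probes, myoglobin (MB), at 8.97 in fetal and 8.62 in newborn arrays (adjusted p 0.139 in limma). Its second probe stood at 8.85 in fetal and 8.46 in newborn arrays (adjusted p 0.0609 in limma). The skeletal muscle factor MYF5 was not well above background on any array, and the fast-muscle troponin TNNC2 ran from -0.72 to 3.84 in fetal and from -0.46 to 5.30 in newborn arrays, with groups that overlapped. In summed linear level relative to the 75th percentile, the 2 tested lymphocyte markers ran from 0.207 to 0.591 in fetal and 0.0422 to 0.157 in newborn arrays, and both fell. The 2 endothelial markers (5.32 to 6.87 against 3.68 to 6.10) and the 2 erythroid markers (53.7 to 258 against 25.4 to 68.6) fell as well. The lymphocyte marker CD3D and the erythroid marker AHSP were each well above background on 5 of 6 fetal but only 2 of 7 newborn arrays. CD3E was well above background on 6 fetal and 5 newborn arrays, and HBB on 6 and 7. CNN1, the single smooth muscle marker tested, rose (3.63 to 7.17 against 9.81 to 84.0), as did 2 of 3 myeloid markers (0.720 to 1.06 against 0.958 to 2.1). The 3 fibroblast markers together ran from 43.7 to 64.8 against 28.6 to 74.8, and 1 of 3 fell. It was COL3A1, which passed by its brightest probe (adjusted p 0.0469 in limma) but not by its others (0.143 and 0.374). Of the adipocyte markers 0 of 2 passed (0.421 to 0.725 against 0.489 to 0.623).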

How the data were processed

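Total RNA of 13 left ventricles was hybridised to sheep arrays. The cRNA carried Cy3 per the labels' protocols, although another label names Cy5, and the files hold 1 green channel. The authors' deposited scanner files hold spot intensity from Agilent Feature Extraction 10.1.1.1, per the file headers, background-subtracted and detrended within the array. The deposited series matrix holds log2 signal, judged from the values, with a normalization that no label or header states, and served as an alternative.

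Processed signals were divided by the 75th percentile of their array and put on a log2 scale. Controls and outlier-marked spots were dropped, and spots of a probe averaged. Probes well above background on at least 6 arrays were tested, 10255 of 15008. Names came from the files and from the RefSeq gene list, which together named 1584 probes. Age was tested in R 4.3.3 with limma 3.58.1 (lmFit, eBayes) and version 1.17.8 of data.table, two-sided, and figures were drawn in Python 3.11.15 with matplotlib 3.10.9. In simulated data with 10255 probes, 50% of 1.5-fold and 90% of 2-fold age changes were recovered, with 8 false calls. The simulated probes varied independently, and 50 were changed at each of 1.5, 2, 3 and 4-fold. That is a smaller share than the 23.1% called here, so these rates need not hold for the real test.

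Every member probe was described. Other genes were the members of the lists, and the 3 genes of highest correlation with HSP70.1 and with PDIA4. The members and lists were chosen with earlier results of these data known. Alternatives were normexp correction (offset 50), other scalings and filters, slide, sex, replicate or animal number in the model, and each array left out. The planned comparison of inducible with constitutive members had no named constitutive cytosolic probe and was replaced by pairs of members. These pairs, and the pathway lists without each array, were added after the data were seen.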

Additional observations from a re-analysis of the deposited data

Results flagged for a closer look

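In 1 of 14 sets of levels (7 probes in each group), an array lay far from the others of its group by Dixon's criterion. It was HSP90AA1 probe A_70_P014626 in the fetal group, where fetal 2 was highest at 1.77 and the next array stood at 1.49. Chance alone marks about 1 set in 20. Without fetal 2 the HSP90AA1 difference was 0.40 (adjusted p 0.0586 in limma).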

How the results depend on the processing

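As reported, limma called 3 member probes and 2366 probes in all. With normexp correction of each spot these became 0 and 48, within slide 1 they became 0 and 356, and within slide 2 they became 1 and 23. Leaving out 1 array gave 2 to 5 member probes and 1727 to 3116 in all, with 5 and 3116 without newborn 6. Both slides alone hold fewer arrays. The cause of the loss under normexp was not tested.

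The replicate numbers were used as a block because the labels number arrays in both groups, but arrays of the same number did not deviate together (r -0.0708 to 0.0539). With the replicate block, 2 member probes and 1326 in all passed, and PDIA4 differed by 0.54 with an adjusted p of 0.112 in limma. With the shared animal number as a random block, 2 member probes and 1717 in all passed, and HSP70.1 kept both calls (adjusted p 0.00227 and 0.0042 in limma).

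HSP70.1 kept its direction in all alternatives run (-1.27 to -0.73 and -1.08 to -0.65 by probe) and PDIA4 did too (0.29 to 0.65). Among the pairs that did not pass, HSPA5 minus PDIA4 turned from -0.12 to 0.11 in the series matrix (adjusted exact permutation p 0.664) and was 0.15 within slide 1, and HSPA5 minus HSP90AA1 ran from -0.05 to 0.19 when 1 array was left out (-0.0039 without newborn 2 and -0.047 without newborn 3) and was -0.19 within slide 2. The 4 pairs with HSP70.1 stayed past the threshold without any single array. No named probe for a constitutive cytosolic member was found, so that planned comparison was not run. Precision is limited by the number of arrays.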

Other observations

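A pair of probes without a gene name belongs to a J-domain protein by the description in the files. Probe A_70_P059926 is described there as the DnaJ homolog A1 of cattle, a co-chaperone of cytosolic Hsp70. It rose by 0.53 on the log2 scale (SE 0.156, 1.44-fold, adjusted p 0.026 in limma), with 5 of 7 newborn arrays above all fetal ones. Probe A_70_P068446, which the files place in the same transcript cluster, differed by 0.40 and did not pass (adjusted p 0.177). A probe in the transcript cluster of HSPA5, A_70_P012921, differed by 0.44 (adjusted p 0.174), with newborn 3 highest of all arrays at 5.34 and newborn 6 lowest of the newborn arrays at 3.71, above fetal 3 and 5. These probes were outside the rule for the members.

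CRYAA, the alpha-A crystallin and a small heat shock protein by family, did not pass the test for age (0.37, adjusted p 0.620 in limma), but its arrays fell into 2 sets with a gap between them. This was seen after its values were inspected and carries no test. On probe A_70_P039471, 5 arrays lay between 0.39 and 1.11 and the other 8 between -1.08 and -0.59. Its second probe, A_70_P039472, gave 0.60 to 1.48 on the same 5 arrays and -1.01 to -0.47 on the others. The 5 high arrays were fetal 1 and 6, which share 1 animal number, and newborn 2, 4 and 5, which share another. The other animals that share numbers, fetal 3 with 5 and newborn 1 with 7, were all low.

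ATF4, a transcription factor of the unfolded protein response, stood at 3.61 on newborn 3 and between 0.93 and 1.67 on the others. Newborn 3 was also the highest array for HSPA5 and XBP1.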
